A study of Mus musculus with 54 samples.

Results

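The genes described are 8 that encode transcription factors of neural progenitors, namely Sox1, Sox3, Pax6, Irx3, Rfx4, Sall1, Sall3 and Neurog2. They were chosen by name and found, through their Ensembl identifiers and the symbols of GENCODE M21, among the 55401 genes of the deposited table of raw counts. RNA was sequenced from mouse embryonic stem cells, which are taken from the early embryo and can form every tissue of the body. The cells were either undifferentiated (mESC) or had gone through a short differentiation, in which all-trans retinoic acid was given and 2i and LIF, the inhibitors and the cytokine that hold the cells undifferentiated, were withdrawn (ATRA). In 6 of the lines used, cells heterozygous for Ezh2 (Ezh2 fl/Δ) express EZH2 from elsewhere: EZH2-A677T, EZH2-R679C, EZH2-K634E, EZH2-K563E, EZH2-A733T or EZH2-WT. The heterozygous cells themselves are called het below, and the line from which they come parental. In the deposited counts the parental libraries are named flfl, read here as Ezh2 fl/fl. Each of these 8 lines was sequenced with 3 libraries in ATRA and 3 in mESC, so that 48 libraries were used.

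EZH2 is the enzyme of Polycomb repressive complex 2, which methylates histone H3 and keeps developmental genes silent. The series asks how EZH2 variants of Weaver syndrome, a disorder of overgrowth, and 1 variant tied to growth restriction change expression. Which variant that is cannot be read from the labels. A733T was kept apart as such from what is generally known of it, and A677T, R679C, K634E and K563E are called the 4 Weaver lines. The EZH2-Y728 line was not analysed here. The labels give neither the promoter of the added EZH2, nor whether a line is 1 clone, nor whether replicates were cultured separately. The spread on which p-values rest is that between these libraries, and it may be technical.

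In the embryo, SOX1 and SOX3, which with SOX2 make up the SoxB1 group, mark the neural plate and hold progenitors in a dividing state, and PAX6 is a paired-box and homeobox factor of eye, forebrain and spinal cord progenitors. Retinoic acid pushes stem cells toward such neural fates by binding nuclear receptors on DNA. IRX3 and NEUROG2 divide the neural tube into domains and start neuron formation, RFX4 is a winged-helix factor of the neural tube and its cilia, and SALL1 and SALL3 are zinc finger factors also made by pluripotent cells and by kidney, limb and brain.

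The start sites of 6 of the genes were found in the RefSeq promoter table on GRCm38.p6, as 10 windows of 300 bases. Stretches of 250 bases before the outermost start of Pax6, Rfx4 and Sall1 are shown, because Polycomb complexes in mammals gather at CpG-rich promoters. Pax6 and Rfx4 were higher and Sall1 was lower after ATRA. Capitals mark each CpG, and the sequences run 5′ to 3′ on the strand of the gene.
Pax6, chr2:105668646-105668895, plus strand: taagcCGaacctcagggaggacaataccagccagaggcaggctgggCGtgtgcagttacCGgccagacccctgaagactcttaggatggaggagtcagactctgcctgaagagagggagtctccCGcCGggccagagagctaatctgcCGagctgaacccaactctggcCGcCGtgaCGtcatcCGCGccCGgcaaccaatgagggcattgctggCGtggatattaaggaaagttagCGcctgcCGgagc
Rfx4, chr10:84755798-84756047, plus strand: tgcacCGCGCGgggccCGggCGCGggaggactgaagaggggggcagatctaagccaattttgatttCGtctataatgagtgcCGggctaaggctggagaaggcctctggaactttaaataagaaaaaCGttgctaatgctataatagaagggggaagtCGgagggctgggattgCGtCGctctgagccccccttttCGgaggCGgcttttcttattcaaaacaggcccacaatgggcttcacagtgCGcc
Sall1, chr8:89044163-89044412, minus strand: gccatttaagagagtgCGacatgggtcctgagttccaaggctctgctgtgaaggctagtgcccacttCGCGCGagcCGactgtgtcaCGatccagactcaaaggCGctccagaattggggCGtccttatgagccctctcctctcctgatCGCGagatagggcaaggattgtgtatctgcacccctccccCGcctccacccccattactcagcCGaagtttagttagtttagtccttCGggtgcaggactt
These stretches hold 15, 15 and 13 CpG. Across the 10 windows of the 6 genes the median was 18 CpG, an observed over expected CpG ratio of 0.742 and a GC content of 57.7%. The median over the 32851 windows of the table was 7 CpG, a ratio of 0.384 and a GC content of 52.7%. Some of the 6 genes have more than 1 window, so the median of the 10 is over windows, not genes. By CpG number, the windows at the starts shown stood at percentile 71.9 (Pax6), 75.2 (Rfx4) and 71.9 (Sall1) of all windows. The CpG content spread widely among the windows, with 39 CpG in a Sall1 window 1300 bases downstream of the outermost start and 3 in an Rfx4 window far downstream. The letters AGGTCA, which nuclear receptors of retinoic acid bind in pairs, searched on both strands (as AGGTCA or TGACCT), were found in 1 of the 10 windows, that of the downstream Rfx4 start, and in 16.3% of all windows.

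In GENCODE M21, on the mouse build GRCm38 (mm10), Pax6 spans chr2:105668900-105697364 and Rfx4 chr10:84756062-84906538, both on the plus strand. Sox1 (chr8:12395295-12400126, plus), Sall1 (chr8:89027235-89044162, minus) and Irx3 (chr8:91798525-91802067, minus) share a chromosome but lie far apart. Sox3 spans chrX:60891366-60893430 on the minus strand, Sall3 chr18:80966376-80986771 on the minus strand and Neurog2 chr3:127633135-127635631 on the plus strand. All 8 are protein-coding.

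Libraries held 15612700 to 31338825 counts in ATRA and 15361598 to 29614420 in mESC. Levels below are counts per 1000000 library counts (CPM) after TMM scaling, and differences are log2 fold changes with a standard error (SE) from edgeR's quasi-likelihood test. A gene is called changed at a Benjamini-Hochberg adjusted p under 0.05, adjusted over all genes tested. Ezh2 averaged 488 to 560 CPM in the 4 Weaver lines in mESC, 360 in A733T, 439 in WT, 280 in het and 302 in parental cells. The summed level of 12 naive pluripotency markers was 625 to 1057 CPM in ATRA libraries, against 4663 to 6094 CPM in mESC libraries. Libraries differed in how their counts followed the GC content of genes. Over genes, the deviation of a library from its state's mean was ranked against GC content, and Spearman's rho lay between -0.74 and 0.11 in the 4 Weaver lines in mESC, against 0.51 to 0.74 in the WT libraries. The lowest values of the 2 states were those of mESC A677T replicate 3, at -0.74, and ATRA K634E replicate 3, at -0.77. In ATRA the ranges of the Weaver lines and WT overlapped, from -0.77 to 0.58 against -0.28 to 0.56. Sox3, with 66.4% GC, and Irx3, with 62.4%, lie above 98.5% of the genes tested, whose median is 50.3%. Values after removal of the GC trend, library by library, are therefore given beside the calls that the correction changes.

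With ATRA most of the progenitor genes rose, Sall1 fell, and Sall3 moved little. Of the 7 genes that passed the filter on low counts, 5 rose in the WT line (Pax6, Irx3, Sox1, Sox3 and Rfx4) and 2 fell (Sall1 and Sall3), where 59.0% of all genes tested were called, of which those that rose were 29.8% and those that fell 29.2% of all. Pax6 had 18.9, 18.6 and 17.6 CPM in WT cells in ATRA, against 0.304, 0.429 and 0.387 CPM in WT mESC. This is a log2 fold change of 5.60 (SE 0.199, adjusted p = 7.13e-28), the greatest of the 7. Irx3 had 4.14, 3.95 and 2.95 CPM in ATRA, against 0.253, 0.0953 and 0.111 CPM in mESC, a change of 4.53 (SE 0.356, adjusted p = 3.15e-15). Both genes were close to silent in mESC, where no library of any line passed 1.74 CPM for Pax6 or 0.527 CPM for Irx3. In bulk samples like these, fewer cells that make a transcript and less transcript per cell cannot be told apart.

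Sox1 had 100.2, 86.1 and 97.2 CPM in WT cells in ATRA, against 5.97, 5.48 and 5.59 CPM in mESC, and rose by 4.05 (SE 0.126). Sox3 had 58.0, 61.3 and 57.0 CPM in ATRA, against 12.0, 9.15 and 10.6 CPM in mESC, and rose by 2.48 (SE 0.111). Rfx4 had 2.07, 1.34 and 1.79 CPM in ATRA, against 0.455, 0.810 and 0.442 CPM in mESC, and rose by 1.57 (SE 0.301). The libraries of the 2 states did not overlap for any of these genes. Sall1 fell to 32.3, 32.6 and 29.5 CPM in ATRA, against 148, 157 and 155 CPM in mESC, a change of -2.28 (SE 0.0627). Sall3 had 22.6, 25.3 and 24.4 CPM in ATRA, against 30.1, 27.6 and 32.5 CPM in mESC, a change of -0.32 (SE 0.0872, adjusted p = 0.00174), and with the GC trend taken out it was -0.08 (adjusted p = 0.520). The fall of Sall1 in WT kept its call under every alternative run, while that of Sall3 did not.

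In the 7 other lines, Pax6, Sox1, Sox3 and Irx3 rose and Sall1 fell as well, each with libraries that did not overlap. Called were 7 of 7 genes in A677T (55.3% of all genes), R679C (57.5%) and parental cells (55.2%). In K634E (57.4%), K563E (57.8%), A733T (55.8%) and het (56.8%) 6 of 7 were called. The log2 fold changes over all 8 lines ran from 4.34 to 5.84 for Pax6, from 3.78 to 5.22 for Sox1, from 2.13 to 3.85 for Sox3 and from 3.40 to 5.50 for Irx3, and from -2.64 to -1.44 for Sall1. Rfx4 rose in 7 of the 8 lines, with 3.57 in K563E the greatest, and stood at 0.08 (SE 0.337, adjusted p = 0.888) in A733T. In parental cells its call, 0.84 (adjusted p = 0.0484), was lost by DESeq2 (adjusted p = 0.0690), with no filter on low counts (0.168) and without any 1 of 5 of the 6 libraries. With 1 library left out the adjusted p was 0.347 and 0.104 without mESC replicates 1 and 3, and 0.107, 0.0619 and 0.0944 without ATRA replicates 1, 2 and 3. The log2 value was 0.46 without mESC replicate 1 and 1.30 without mESC replicate 2.

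Sall3, by contrast, moved little in most lines. It rose in A733T by 0.82, a call that no alternative changed. It stood at 0.24 in R679C and 0.24 in parental cells (both called), at -0.20 in A677T (called), and at -0.07, 0.18 and 0.02 in K634E, K563E and het, where it was not called. These small changes depended on single libraries and on the processing. With the GC trend taken out, Sall3 stood at 0.33 (adjusted p = 0.00275) in K563E and 0.38 (adjusted p = 0.00283) in parental cells. With no filter on low counts the call was lost in A677T (adjusted p = 0.0607), R679C (0.0722) and parental cells (0.0685). In A677T it was also lost with relative log expression scaling (0.0840) and by DESeq2 (0.0686), while K563E was called with that scaling (0.0389) and by DESeq2 (0.0281). In R679C the adjusted p was 0.137 without mESC replicate 3 and 0.0509 without ATRA replicate 2. In parental cells it was 0.0634 and 0.0877 without mESC replicates 2 and 3, and 0.106 and 0.121 without ATRA replicates 1 and 3. In A677T it was 0.193 without mESC replicate 2, 0.332 and 0.0823 without ATRA replicates 1 and 2, where the value without ATRA replicate 1 was -0.11. In K563E a call was also gained without mESC replicate 3 (0.0220) or ATRA replicate 1 (0.0364).

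**Figure D1:**
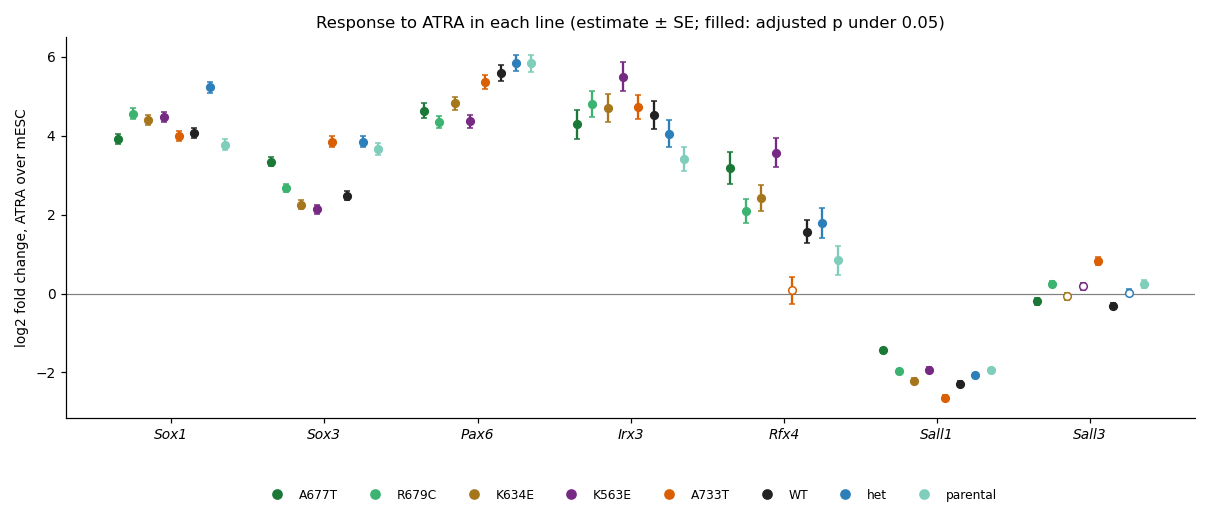
Log2 fold change of ATRA over mESC (y axis) for each gene (x axis) in the 8 lines, as the estimate with its SE, where filled points have an adjusted p under 0.05. Pax6, Irx3, Sox1 and Sox3 lie above 2 and Sall1 below -1 in every line, while Rfx4 is near 0 in A733T and Sall3 near 0 in most lines.

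Per kilobase of annotated exon, which allows genes to be compared, Sox3 was the most abundant of the 8 in ATRA, with a mean over 24 libraries of 29.3 CPM per kb. It was followed by Sox1 (19.5), Sall1 (7.39), Sall3 (4.29), Pax6 (1.77), Irx3 (1.64), Rfx4 (0.300) and Neurog2 (0.0223). In mESC Sall1 led with 29.2 CPM per kb, followed by Sox3 (4.29), Sall3 (4.12) and Sox1 (1.02), and Rfx4, Irx3 and Pax6 were each under 0.08. The order is that of means over the 8 lines and differed within lines. In ATRA, Sall3 stood above Sall1 in R679C (6.16 against 5.92) and K563E (6.57 against 5.40), and Irx3 above Pax6 in A677T and above Pax6, Sall1 and Sall3 in A733T. In mESC, Sall3 stood above Sox3 in A677T, het and parental cells, and Sox1 above Sall3 in A733T. Undifferentiated cells held transcripts of Sall1, Sall3 and Sox3 at levels per length well above those of Pax6, Irx3 and Rfx4.

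Neurog2, a basic helix-loop-helix factor that drives progenitors into the neuronal path, was at 0 counts in all 24 mESC libraries. A count of 0 allows up to 3 counts, which is 0.101 to 0.195 CPM at these depths, counting error only. In ATRA it had 1 to 3 counts in 13 libraries and 0 in 11. K563E had 2, 3 and 3 counts, A733T 2, 2 and 0, R679C 1, 0 and 2, and K634E 1, 2 and 0. A677T had 1, 0 and 0 counts, WT 0, 1 and 0, parental 1, 2 and 0, and het 0 in all 3. All libraries were at or under the 3 counts that a count of 0 allows, and the gene did not pass the filter for any test. In sum K563E had 8 counts, against 1 in WT and 0 in het, and every K563E library lay above every WT and het library. Fitted by edgeR with no filter, Neurog2 was not called between lines in ATRA, with an adjusted p of 0.282 for K563E against WT (unadjusted 0.0492), 0.155 for the mean of the 4 Weaver lines against het (unadjusted 0.0418) and 0.272 for A733T against het (unadjusted 0.0380).

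**Figure D2:**
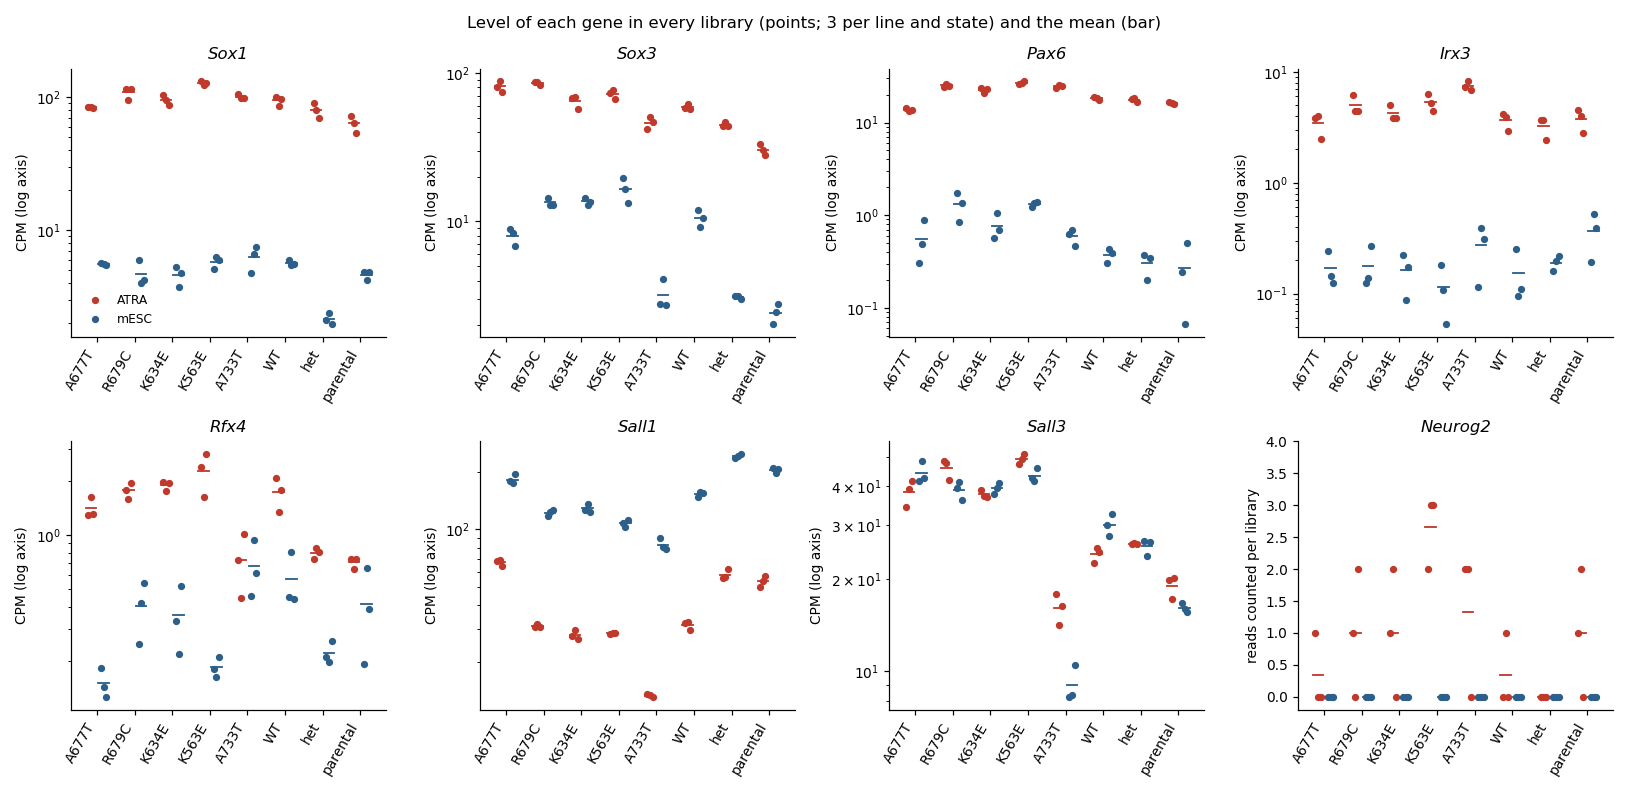
Level of each of the 8 genes (y axis, CPM on a log axis, and raw counts for Neurog2) in every library, by line (x axis), with ATRA in red left of mESC in blue and a bar at the mean of 3 libraries. Sall1 is the gene whose ATRA points lie under its mESC points in every line. A733T has the lowest mean Sall3 in both states, and in ATRA its points overlap those of parental cells.

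The comparison of a variant line with WT asks what the variant changes when the same heterozygous cells express it in place of wild-type EZH2. Each variant is represented by 1 line, so a difference between lines or clones cannot be told apart from an effect of the variant. In mESC, 6 of the 8 genes were tested, since Irx3 and Neurog2 did not pass the filter. Called were 4 genes in A677T (where 44.6% of all genes tested were called), 4 in R679C (23.7%), 3 in K634E (29.3%), 5 in K563E (34.5%) and 3 in A733T (19.3%). For the mean of the 4 Weaver lines 5 were called, against 44.4% of all genes. In ATRA, of 7 tested, 4 were called in A677T (19.4% of all genes), 3 in R679C (10.3%), 2 in K634E (15.0%), 4 in K563E (20.5%), 6 in A733T (17.7%) and 4 for the mean of the 4 Weaver lines (20.5%). The median log2 fold change of the tested members for that mean was 0.23 in ATRA and 0.08 in mESC, against 0.00 over all genes in both. These comparisons share the same 3 WT libraries per state, so they are not independent of each other.

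Sall3 was the gene that differed in the same way in all 4 Weaver lines and in both states, and A733T went the other way. In ATRA, Sall3 had 34.3, 39.2 and 41.8 CPM in A677T and 48.5, 47.7 and 42.0 CPM in R679C. It had 38.9, 37.1 and 37.0 CPM in K634E and 47.2, 49.1 and 51.2 CPM in K563E. The WT libraries had 22.6, 25.3 and 24.4 CPM. Every library of the 4 Weaver lines was thus above every WT library, and the mean of the lines was higher than WT by 0.82 (SE 0.0713, adjusted p = 1.67e-09). Singly the lines were higher than WT by 0.67, 0.94, 0.65 and 1.03 in A677T, R679C, K634E and K563E. A733T had 17.8, 14.1 and 16.3 CPM, all under the WT libraries, and was lower at -0.59 (SE 0.0914, adjusted p = 4.57e-05).

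In mESC, Sall3 had 41.5, 48.3 and 42.6 CPM in A677T, 39.5, 41.2 and 36.0 in R679C, 37.9, 39.5 and 41.0 in K634E and 42.5, 41.7 and 46.1 in K563E, against 30.1, 27.6 and 32.5 CPM in WT. The libraries again did not overlap, with a difference of 0.50 (SE 0.0694, adjusted p = 2.31e-06) for the mean of the lines and 0.41 to 0.60 for single lines. With the GC trend taken out, K634E was 0.68 (adjusted p = 1.85e-06) in place of 0.43. In A733T mESC, Sall3 had 8.22, 8.38 and 10.5 CPM, lower than WT at -1.71 (SE 0.0959, adjusted p = 1.11e-12), its lowest value in any comparison between lines. Averaging A733T in with the 4 Weaver lines therefore gave 0.06 (adjusted p = 0.515) in mESC and 0.54 in ATRA.

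Sall1, the paralog of Sall3, did not follow it. In mESC it had 179, 175 and 195 CPM in A677T, above the 148, 157 and 155 CPM of WT, with a difference of 0.30 (SE 0.0611, adjusted p = 0.000337). R679C had 117, 123 and 126 CPM, K634E 127, 136 and 124 and K563E 109, 103 and 112, all below WT. These lines were lower at -0.29 (adjusted p = 0.00107), -0.22 (adjusted p = 0.0105) and -0.47 (adjusted p = 1.81e-06). A733T had 90.1, 80.6 and 79.2 CPM and was lower at -0.86 (SE 0.0623, adjusted p = 1.58e-10). The K634E call was lost without WT replicate 2 (adjusted p = 0.0511) and with the GC trend taken out (-0.16, adjusted p = 0.0753). The mean of the 4 Weaver lines joins lines of opposite sign, at -0.17 (adjusted p = 0.00553), and lost its call in both settings too (adjusted p = 0.0527 without WT replicate 2, and -0.11, adjusted p = 0.0672 with the GC trend taken out).

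In ATRA the contrast between lines was greater. Sall1 had 68.3, 69.5 and 64.6 CPM in A677T, against 32.3, 32.6 and 29.5 CPM in WT, a difference of 1.10 (SE 0.0680, adjusted p = 2.80e-12). A733T had 13.6, 13.4 and 13.1 CPM, lower than WT at -1.24 (SE 0.0746, adjusted p = 3.53e-12). R679C, K634E and K563E averaged 31.1 ± 0.672, 27.9 ± 1.57 and 28.4 ± 0.133 CPM (SD, n = 3 each) and were not called, at -0.01, -0.17 and -0.15. A677T was thus the one Weaver line called for Sall1 in ATRA, and the mean over the 4 lines, 0.19 (adjusted p = 0.0124), joins it with 3 lines below 0. That call was lost without WT replicate 3 (adjusted p = 0.114), with no filter on low counts (0.0974), and the value turned to -0.092 (adjusted p = 0.329) with A733T averaged in.

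Sox3, the X-linked SoxB1 gene, was lower than WT in A733T in both states. In mESC it had 2.76, 4.09 and 2.73 CPM in A733T, against 12.0, 9.15 and 10.6 CPM in WT, a difference of -1.69 (SE 0.162, adjusted p = 2.92e-08). In ATRA it had 42.2, 50.2 and 46.5 CPM in A733T, against 58.0, 61.3 and 57.0 CPM in WT, a difference of -0.34 (SE 0.0808, adjusted p = 0.00349). The A733T libraries lay below all WT libraries in each state and overlapped those of het, which had 3.13, 3.15 and 2.99 CPM in mESC and 43.6, 46.3 and 43.8 CPM in ATRA. Against het, A733T stood at 0.08 (SE 0.186) in mESC and 0.06 (SE 0.0811) in ATRA, neither of them called.

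In the Weaver lines in ATRA, Sox3 had 80.9, 88.4 and 74.5 CPM in A677T, 86.4, 87.1 and 83.3 in R679C, 68.1, 68.9 and 56.9 in K634E and 73.7, 76.5 and 66.9 in K563E. It was higher than WT by 0.47 (SE 0.0792, adjusted p = 8.44e-05) in A677T and by 0.55 (SE 0.0790, adjusted p = 2.27e-05) in R679C, and by 0.30 (SE 0.0795, adjusted p = 0.00769) in K563E, whose call was lost without K563E replicate 2 (adjusted p = 0.0525). K634E overlapped WT at 0.14 (adjusted p = 0.230). With the GC trend taken out K563E was 0.49 (adjusted p = 4.72e-06) and K634E 0.40 (adjusted p = 0.000264). The mean of the 4 lines was 0.36 (SE 0.0641, adjusted p = 0.000123).

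In mESC the Sox3 values of the Weaver lines depended on the GC correction. A677T had 8.88, 8.29 and 6.80 CPM, R679C 14.4, 12.9 and 12.9, K634E 14.4, 12.9 and 13.6 and K563E 19.7, 16.6 and 13.3. As counted, A677T was lower than WT at -0.36 (adjusted p = 0.0467), and R679C, K634E and K563E were higher at 0.38 (adjusted p = 0.0487), 0.40 (adjusted p = 0.0320) and 0.68 (adjusted p = 0.000398). With the GC trend taken out, A677T turned to 0.18 (adjusted p = 0.280), and R679C, K634E and K563E were 0.70 (adjusted p = 2.15e-05), 0.90 (adjusted p = 5.78e-07) and 1.09 (adjusted p = 2.98e-09). The mean of the 4 lines was 0.27 (adjusted p = 0.0490) as counted and 0.72 (adjusted p = 2.01e-07) corrected. As counted, only the K563E call kept its side of the threshold without any single library. The A677T call was lost without A677T replicate 3 (adjusted p = 0.150) or WT replicates 1 (0.212) or 3 (0.0750). The R679C call was lost without any R679C library (adjusted p of 0.169, 0.0878 and 0.106) or WT replicates 2 (0.205) or 3 (0.135). The K634E call was lost without any K634E library (adjusted p of 0.121, 0.0513 and 0.0898) or WT replicates 2 (0.136) or 3 (0.0918). For the mean of the 4 lines, leaving out any 1 of 11 of the 15 libraries lost the call, with an adjusted p of 0.0536 to 0.277, the highest without WT replicate 2, where the value was 0.18.

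**Figure D3:**
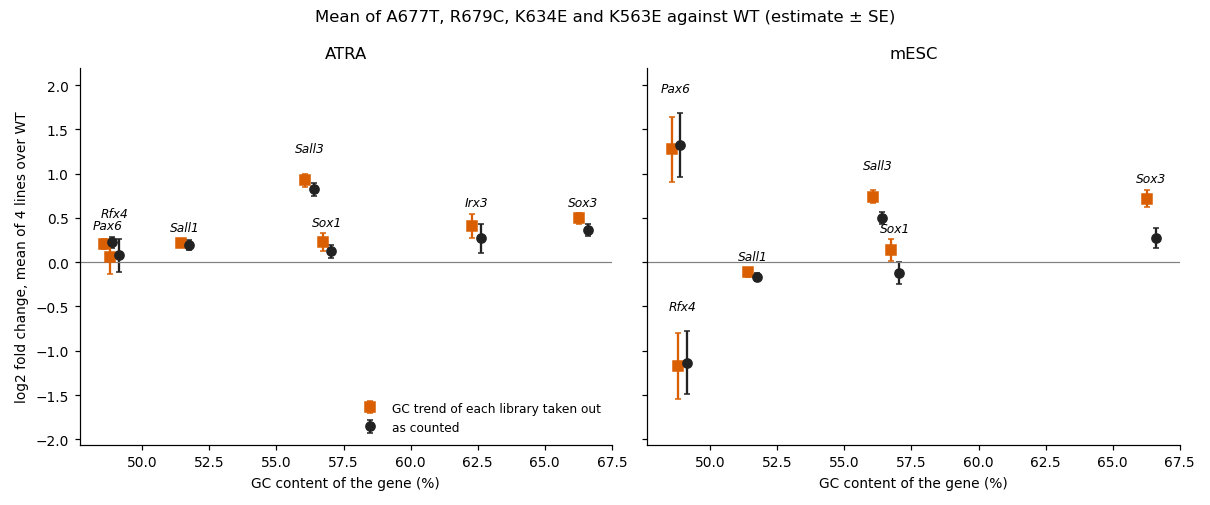
Log2 fold change, averaged over the 4 Weaver lines, against WT (y axis, estimate with SE) against the GC content of each tested gene (x axis, %), in ATRA and in mESC, as counted (black circles) and after removal of the GC trend of every library (orange squares). The correction moves Sox3 in mESC from 0.27 to 0.72 and Sall3 from 0.50 to 0.74, and leaves Pax6 and Rfx4, which lie near the median GC content, close to where they were.

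Sox1 did not differ from WT in any variant line in mESC beyond the threshold, with estimates from -0.28 in K634E to 0.17 in A733T and means of 4.59 to 6.28 CPM, against 5.68 CPM in WT. The Sox1 gene lies within the longer noncoding gene Sox1ot on the same strand, whose exons do not overlap those of Sox1 in GENCODE M21. In ATRA, Sox1 was higher than WT in K563E, with 133, 124 and 127 CPM against 100.2, 86.1 and 97.2 CPM, a difference of 0.44 (SE 0.0943, adjusted p = 0.00139). The other variant lines lay between -0.18 in A677T and 0.21 in R679C and were not called. By mean level in ATRA, Sox1 was highest in K563E and Sox3 in R679C.

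Pax6 transcripts were scarce in mESC but more numerous in 2 Weaver lines than in WT. R679C had 1.74, 0.839 and 1.36 CPM and K563E 1.21, 1.36 and 1.37, against 0.304, 0.429 and 0.387 CPM in WT. Both lines were higher without overlap, by 1.78 (SE 0.410, adjusted p = 0.00241) and 1.83 (SE 0.413, adjusted p = 0.00114). K634E had 0.560, 1.05 and 0.699 CPM and A677T 0.306, 0.482 and 0.882, at 1.09 (adjusted p = 0.0621) and 0.59 (adjusted p = 0.323). These levels are 1 to 28 counts per library over all lines. The mean of the 4 lines was 1.32 (SE 0.360, adjusted p = 0.00412).

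In ATRA, where Pax6 was plentiful, the lines separated clearly. R679C had 24.5, 26.0 and 25.1 CPM, K634E 23.9, 20.7 and 23.0, K563E 26.3, 26.7 and 28.4 and A733T 23.6, 25.3 and 25.2, against 18.9, 18.6 and 17.6 CPM in WT. A677T had 14.2, 13.3 and 13.7 CPM. All libraries of the first 4 lines lay above WT and all of A677T below it. The differences from WT were 0.46 (adjusted p = 0.000110) in R679C, 0.30 (adjusted p = 0.00886) in K634E, 0.56 (adjusted p = 4.35e-06) in K563E, 0.43 (adjusted p = 0.000247) in A733T and -0.42 (adjusted p = 0.000292) in A677T. The K634E call was lost with no filter on low counts (adjusted p = 0.0971). The mean over the 4 Weaver lines, 0.23 (adjusted p = 0.00845), joins lines of opposite sign and was not called with no filter (adjusted p = 0.0956) or without WT replicate 3 (0.0643).

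Irx3 and Rfx4 set A733T apart after ATRA, in opposite directions. Irx3 had 7.37, 8.31 and 6.85 CPM in A733T, against 4.14, 3.95 and 2.95 CPM in WT, and was higher by 1.03 (SE 0.197, adjusted p = 0.000490). Rfx4 had 0.725, 0.449 and 1.02 CPM in A733T, against 2.07, 1.34 and 1.79 CPM in WT, and was lower at -1.25 (SE 0.275, adjusted p = 0.00189). Neither pair of groups overlapped. By the edgeR test with the filter, no Weaver line was called for Irx3 or Rfx4 in ATRA. For Irx3 the estimates ran from -0.10 in A677T to 0.53 (adjusted p = 0.0665) in K563E, and with the GC trend taken out K563E was 0.75 (adjusted p = 0.000981) and the mean of the 4 lines 0.41 (adjusted p = 0.0239) in place of 0.27 (adjusted p = 0.268). Irx3 in K563E was also called with no filter on low counts (adjusted p = 0.0434), by DESeq2 (0.0498) and with the replicate number as a block (0.00952), and in R679C with the block (0.0436). For Rfx4 the estimates ran from -0.28 in A677T to 0.40 in K563E.

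In mESC Rfx4 was at under 1 CPM in all 24 libraries. A677T had 0.184, 0.145 and 0.126 CPM and K563E 0.182, 0.163 and 0.211, against 0.455, 0.810 and 0.442 CPM in WT, without overlap and lower, at -1.85 (adjusted p = 0.00644) and -1.56 (adjusted p = 0.0185). R679C and K634E stood at -0.45 and -0.68 and were not called, and the mean of the 4 lines was -1.13 (adjusted p = 0.0114). All 3 of these calls were lost without WT replicate 2, the WT library with the most Rfx4. The adjusted p was then 0.0509 for A677T, 0.118 for K563E and 0.169 for the mean, and it was 0.0591 without K563E replicate 2.

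**Figure D4:**
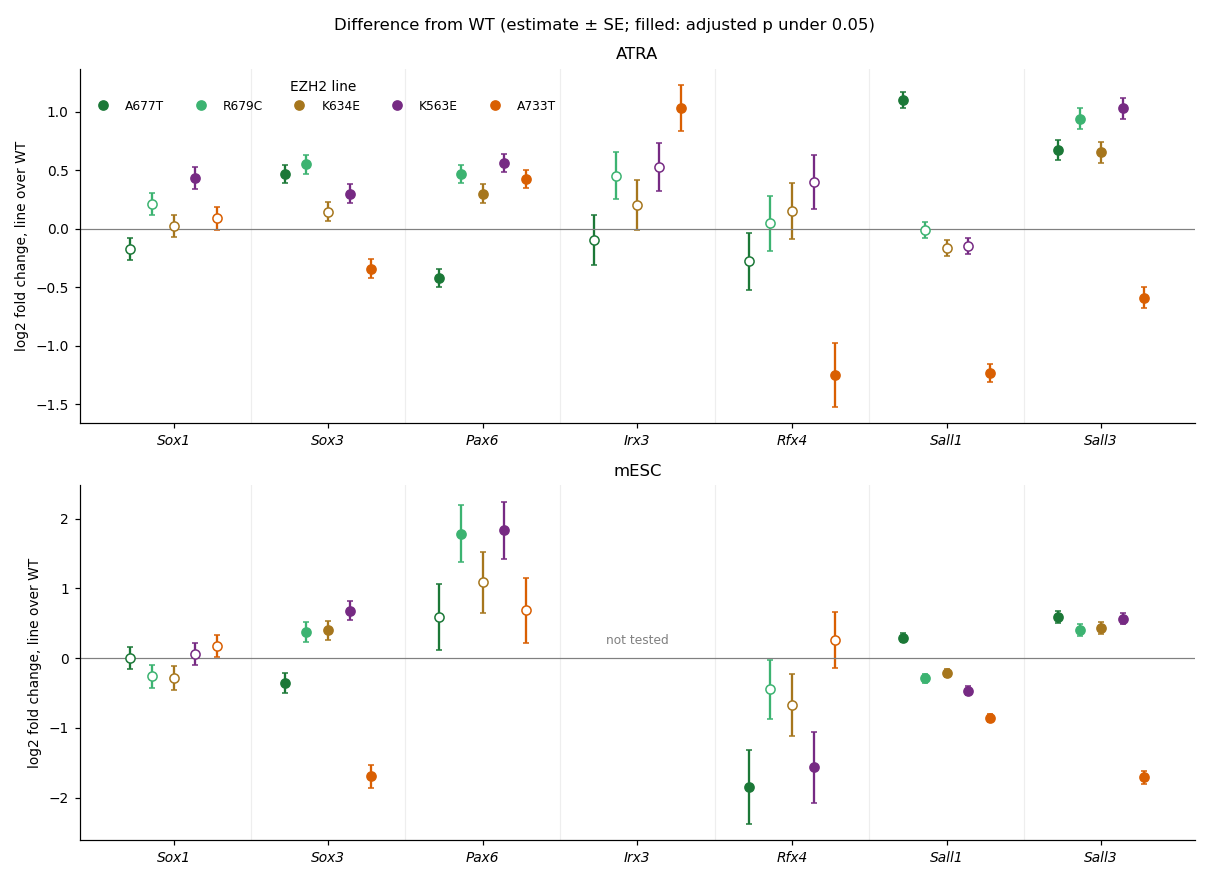
Log2 fold change of each EZH2 variant line over WT (y axis, estimate with SE) for the genes tested (x axis), in ATRA (top) and mESC (bottom), where filled points have an adjusted p under 0.05. Sall3 lies above 0 in the 4 Weaver lines and below 0 in A733T in both panels, and Sall1 in ATRA ranges from 1.10 in A677T to -1.24 in A733T.

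Het and parental cells differ by 1 Ezh2 allele, and WT and het cells by added wild-type EZH2. Each of them too is 1 line, so a difference between lines or clones cannot be told apart from these. Against parental cells, het had 3 of 6 genes called in mESC (3.44% of all genes) and 3 of 7 in ATRA (6.25%). Sox1 had 2.12, 2.36 and 1.95 CPM in het mESC, against 4.82, 4.22 and 4.83 CPM in parental mESC, lower at -1.12 (SE 0.187, adjusted p = 0.000389). In ATRA it was 90.5, 79.4 and 69.8 CPM in het, against 72.7, 64.3 and 53.7 CPM in parental cells, at 0.32 (adjusted p = 0.0377). The libraries overlapped in ATRA, and the call was lost with the GC trend taken out (0.35, adjusted p = 0.0968), without het replicates 1 (adjusted p = 0.297) or 2 (0.0919) and without parental replicates 2 (0.0903) or 3 (0.265).

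Sall3 was higher in het than in parental cells in both states. It had 25.9, 26.1 and 26.0 CPM in het and 19.8, 17.1 and 20.1 CPM in parental cells in ATRA, a difference of 0.44 (SE 0.0881, adjusted p = 0.00142). In mESC it had 26.6, 23.8 and 26.4 CPM in het and 16.7, 16.0 and 15.6 CPM in parental cells, a difference of 0.67 (SE 0.0912, adjusted p = 3.08e-05). Sox3 was higher in het in ATRA, with 43.6, 46.3 and 43.8 CPM in het against 33.0, 30.2 and 27.9 CPM in parental cells, by 0.55 (SE 0.0823, adjusted p = 4.63e-05), and stood at 0.36 (adjusted p = 0.479) in mESC. Sall1 had 238, 242 and 250.4 CPM in het mESC, against 211, 199 and 209 CPM in parental mESC, at 0.23 (adjusted p = 0.0249), a call lost without any 1 of the 6 libraries (adjusted p of 0.0532 to 0.129) and with no filter on low counts (0.0841). Pax6, Irx3 and Rfx4 were not called between het and parental cells in any state in which they were tested.

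Against het, WT had 3 of 6 genes called in mESC (12.1% of all genes) and 3 of 7 in ATRA (16.4%). Sox3 was higher in WT, with 58.0, 61.3 and 57.0 CPM against 43.6, 46.3 and 43.8 CPM in het in ATRA, and 12.0, 9.15 and 10.6 CPM against 3.13, 3.15 and 2.99 CPM in het in mESC. These are differences of 0.40 (SE 0.0801, adjusted p = 0.000766) and 1.77 (SE 0.161, adjusted p = 2.18e-08). Sall1 was lower in WT, with 32.3, 32.6 and 29.5 CPM against 55.7, 56.1 and 61.9 CPM in het in ATRA, and 148, 157 and 155 CPM against 238, 242 and 250.4 CPM in het in mESC. Its differences were -0.87 (SE 0.0677, adjusted p = 6.97e-10) and -0.67 (SE 0.0609, adjusted p = 2.18e-08). Both genes kept their direction and call in both states under every alternative.

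Sox1 was higher in WT than in het in mESC, by 1.40 (SE 0.181, adjusted p = 5.29e-06), and stood at 0.24 (adjusted p = 0.0814) in ATRA. In ATRA it was called without het replicate 1 (adjusted p = 0.0249) or WT replicate 2 (0.0451). Rfx4 was higher in WT in ATRA, with 2.07, 1.34 and 1.79 CPM against 0.735, 0.855 and 0.805 CPM in het, by 1.11 (SE 0.258, adjusted p = 0.00318). In mESC it was 1.33 (adjusted p = 0.0668), and 1.35 (adjusted p = 0.0490) with the GC trend taken out. Sall3, which the Weaver lines held above WT, was not called between WT and het, at -0.11 (adjusted p = 0.452) in ATRA and 0.23 (adjusted p = 0.0915) in mESC. Pax6 was not called either, at 0.05 in ATRA and 0.29 in mESC.

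Set against het in place of WT, the mean of the Weaver lines was called for all 7 genes in ATRA (45.8% of all genes) and for 5 of 6 in mESC (51.1%). In ATRA, Rfx4 (1.19), Sox3 (0.77), Sall3 (0.72), Irx3 (0.43), Sox1 (0.36) and Pax6 (0.28) were higher and Sall1 (-0.68) was lower. For Sall1 and Pax6 that mean joins lines on opposite sides of het. A677T had 64.6 to 69.5 CPM of Sall1, above the 55.7 to 61.9 CPM of het. Its Pax6 level was 13.3 to 14.2 CPM, below the 16.6 to 18.6 CPM of het. All libraries of R679C, K634E and K563E lay below het for Sall1 and above it for Pax6. The Irx3 call, 0.43 (adjusted p = 0.0333), was lost without any 1 of 6 libraries. Without het replicate 3 it was 0.27 (adjusted p = 0.252), and without A677T replicates 1 or 2 or replicate 1 of R679C, K634E or K563E the adjusted p was 0.0507 to 0.0567. In mESC, Sox3 (2.04), Pax6 (1.61), Sox1 (1.28) and Sall3 (0.73) were higher and Sall1 (-0.84) was lower, and Rfx4 was not called (0.20).

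A733T against het had 5 of 7 genes called in ATRA (15.6% of all genes) and 4 of 6 in mESC (12.9%). Sall1 was far below het, at -2.11 (SE 0.0735, adjusted p = 1.15e-17) in ATRA and -1.53 (SE 0.0626, adjusted p = 2.30e-15) in mESC. Sall3 was below het too, at -0.70 (SE 0.0906, adjusted p = 2.39e-06) in ATRA and -1.48 (SE 0.0962, adjusted p = 1.85e-11) in mESC. Pax6 (0.48) and Irx3 (1.19) were higher in ATRA. Sox1 was higher in mESC (1.58) and in ATRA at 0.33 (adjusted p = 0.0167), where the call was lost with the GC trend taken out (0.33, adjusted p = 0.0662), without het replicates 2 (adjusted p = 0.0572) or 3 (0.134) or without A733T replicate 1 (0.0743). Rfx4 was higher in mESC at 1.59 (adjusted p = 0.0217), a call lost without any het library (adjusted p of 0.0566 to 0.0836), with no filter on low counts (0.0698) or without A733T replicate 2 (0.134).

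Whether a line answered ATRA differently from WT was tested as an interaction of line and state. Called were 2 of 7 genes for A677T (8.91% of all genes), 3 for R679C (4.58%), 4 for K563E (3.94%), 3 for A733T (3.17%), 2 for het (2.25%) and 4 for the mean of the 4 Weaver lines (7.07%). None was called for K634E (1.27%) by edgeR or by DESeq2, and 2 had an unadjusted p under 0.05. With the GC trend taken out, Sox3 was called there at -0.49 (adjusted p = 0.0348), and in K563E at -0.61 (adjusted p = 0.00133). The following differences in response held under every alternative run. Sox3 rose more with ATRA in A733T, by 1.37 (SE 0.177), and in het, by 1.37 (SE 0.176), 2 of the lines in which its mESC level was low. Sall3 differed in A733T by 1.14 (SE 0.133), where it rose with ATRA. Its fall in WT, as counted, was not called with the GC trend taken out (-0.08, adjusted p = 0.520). Sall1 fell less in A677T, by 0.84 (SE 0.0850), and for the mean of the 4 Weaver lines, by 0.40 (SE 0.0683). Sox1 rose more in het, by 1.17 (SE 0.205). Singly, Sall1 stood at 0.31 in R679C and 0.36 in K563E, calls that some alternatives lost, and was not called in K634E.

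Other neural genes moved in both directions beside the members. Of 50 further genes of neural progenitors and neurons, 39 were tested for the response of WT cells to ATRA, and 21 rose and 10 fell, with a median of 0.89 against 0.02 over all genes. The greatest rises were those of Dcx (7.43), a microtubule protein of young neurons, Pax3 (7.42), a dorsal neural tube factor, Meis2 (6.75), a Hox cofactor, and Dll1 (4.53), a Notch ligand. Olig2 (-3.47), Nkx6-2 (-3.36), Olig1 (-2.82) and Ncam1 (-2.49) fell most. Of 20 genes known to answer retinoic acid, 18 rose and 2 fell, with a median of 5.68. For the mean of the 4 Weaver lines against WT, 3 of these 20 were higher and 7 lower in ATRA, and 2 of the 15 tested were higher and 10 lower in mESC. Of all genes tested, 20.5% were called in that comparison in ATRA and 44.4% in mESC. For A733T against WT, 7 of 20 were higher and 4 lower in ATRA, and 6 of 15 higher and 2 lower in mESC, where 17.7% and 19.3% of all genes were called. Of 24 relatives of the members, 20 were tested for the response of WT cells, and 12 rose and 4 fell. In that response 59.0% of all genes tested were called. Sall2, a further Sall factor, rose by 3.36, while Sox2, the SoxB1 gene of pluripotent cells, fell (adjusted p = 1.05e-20) and Sall4, a Sall factor of pluripotent cells, fell by 0.56.

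Between the 4 Weaver lines and WT, 8 of 35 other neural genes were higher and 2 lower in ATRA, and 11 of 29 higher and 7 lower in mESC. Of all genes tested, 20.5% were called in ATRA and 44.4% in mESC. In ATRA the highest were Ncam1 (0.91), Olig2 (0.81), Meis2 (0.51) and Cdh2 (0.47), and the neuronal RNA-binding gene Elavl3 was lower (-0.55). In mESC Meis2 (2.53), En1 (1.79), Zic5 (0.65) and Zic2 (0.63) were higher, and Nkx6-2 (-1.45), Nes (-1.02), Pou3f1 (-0.82) and En2 (-0.52) lower. The list's median was -0.01 in ATRA and 0.10 in mESC, against 0.00 over all genes in both. Among the relatives in ATRA, Sox2 (0.47), Rfx3 (0.46) and Sall2 (0.40) were higher, and none of the 19 tested was lower. These 3 of 19 are no greater a share than the 20.5% of all genes.

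In A733T, 14 of 35 other neural genes were higher than WT in ATRA and 3 lower, and 9 of 29 higher and 5 lower in mESC. Of all genes tested, 17.7% were called in ATRA and 19.3% in mESC. In ATRA, Irx5 (1.23), which lies in the same cluster as Irx3, and Dcx (1.19) were higher, and Gbx2 (-0.47) and Sox2 (-0.32) were lower. In mESC, Neurod1 (1.85), Otx2 (1.15) and Nkx6-2 (0.92) were higher, and Zic2 (-1.10), Gbx2 (-0.70) and Ncam1 (-0.46) lower. The list's median was 0.40 in ATRA and 0.36 in mESC, against 0.02 and 0.03 over all genes.

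Markers of other cell types moved with the lines as well. Of all genes tested, 20.5% in ATRA and 44.4% in mESC were called for the mean of the Weaver lines against WT. For A733T against WT the shares were 17.7% and 19.3%, and for WT against het in ATRA 16.4%. In ATRA, the summed level of 10 endoderm markers was 172 to 216 CPM in the libraries of the 4 Weaver lines and 393 to 429 in A733T, against 371 to 418 CPM in WT, and 8 of the 10 were called lower for the mean of the Weaver lines. In ATRA het had 259 to 276 CPM and parental cells 241 to 272 CPM for this sum, between the Weaver lines and WT. Of the 10 markers, 8 were called higher in WT than in het in ATRA and 0 lower. In mESC the endoderm sum was 61.0 to 98.6 CPM in the Weaver lines and 158 to 180 in A733T, against 154 to 168 CPM in WT. Het had 200 to 227 CPM and parental cells 174 to 182 CPM in mESC. Of the 6 endoderm markers tested in mESC, 2 were called higher and 3 lower for the mean of the Weaver lines. For A733T 2 were called higher and 0 lower. In each Weaver line 5 or 6 of the 10 averaged under 1 CPM in mESC, so few genes carry this sum. The 10 neuron markers summed to 96.8 to 114 CPM in the Weaver lines and 147 to 156 in A733T in ATRA, against 112 to 113 CPM in WT, with 2 of 10 called higher and 2 lower in the Weaver lines, and 6 of 10 higher in A733T. In mESC they summed to 428 to 525 CPM in the Weaver lines, 418 to 432 in A733T and 385 to 407 in WT. Of the 8 tested, 4 were called higher and 3 lower in the Weaver lines, and 4 higher and 0 lower in A733T. Over all lines the neuron sum was higher in mESC (385 to 525 CPM) than in ATRA (96.8 to 156 CPM), so it does not count neurons. The 8 fibroblast or feeder markers summed to 16.9 to 22.5 CPM in the Weaver lines and 32.7 to 43.7 in A733T in ATRA, against 30.1 to 32.9 CPM in WT. Het had 17.7 to 21.9 CPM and parental cells 19.3 to 22.2 CPM, within the range of the Weaver lines. In each of these groups 0 to 2 of the 8 fibroblast markers were at 0 in ATRA, and 4 to 7 averaged under 1 CPM. Of the 8, 5 were tested, so few genes carry this sum. Of the 12 naive pluripotency markers, 2 were higher and 4 lower in the Weaver lines in ATRA, and 6 higher and 2 lower in A733T. In mESC, 1 was higher and 5 lower in the Weaver lines, and 2 higher and 1 lower in A733T. Their mESC sum was 4663 to 5451 CPM in the Weaver libraries. It was 5500 to 5654 CPM in A733T and 5755 to 5980 CPM in WT. Of 10 mesoderm markers, 7 were tested in ATRA, with 2 higher and 0 lower in the Weaver lines, and 1 higher and 3 lower in A733T. The part that such shifts have in the differences of the members was not tested.

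Genes whose level followed that of a member most closely were sought across the 16 means of line and state, with the mean of each state taken out, among 13401 annotated genes. These correlations are a description over few points that share libraries, depth and GC trends. Sall3 was followed most closely by Chd7 (r = 0.96), Pus7l and Mrpl13 (both 0.95), and Sox3 by Nop10 (0.96), Ssbp1 and Ipo4 (both 0.95). Sall1 was followed by Plekhg3 (0.93), Thap4 (0.90) and Elp3 (0.88), Pax6 by Ccnd2 (0.91), Htr1b and Rtl8b (both 0.87), and Irx3 by Btg2 (0.89) and Fhl2 (0.86). Sox1 was followed by Gucy1b1 (0.89), Cdk1 (0.86) and Dynll1 (0.85), and Rfx4 by Arhgap31 (0.87), Med28 (0.86) and Lrtm2 (0.85). Among the members themselves Sox3 and Sall3 ran closest (0.80), followed by Pax6 and Sox3 (0.67), while Sall1 ran against Pax6 (-0.66), Sox1 (-0.60) and Irx3 (-0.58).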

How the data were processed

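The deposited table holds raw counts per gene, whole numbers that the authors did not normalise. Per the labels, mRNA was captured on poly-T beads and primed with random hexamers. The submitters' processing notes name mm10, featureCounts 1.6.4, STAR 2.7.3a, DESeq2 1.38.3 and cutadapt 3.2, with no role or order. Strandedness, multimapping reads and the annotation release are not given in the sources. The 6 columns that match no label were left out. Of 55401 identifiers, 55141 were found in GENCODE M21.

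Counts were fitted with edgeR 4.0.16 (filterByExpr, TMM scaling, robust quasi-likelihood) in R 4.3.3, over 24 libraries within a state and over 48 for the response to ATRA and its interactions. Benjamini-Hochberg adjustment was over all genes tested in a comparison, and 35 comparisons were made. All 8 genes were found: 7 passed the filter in ATRA and in the fit of both states, and 6 in mESC. The genes, lists and comparisons were chosen with earlier results of these data known. All members are named in the text. From each other list, up to 4 called genes a direction are named, by size, and likeness names the 3 highest, and some genes that these rules pick are not reported here. Replicates were compared for identity in 48 pairs, and their counts differed by more than sampling noise (chi-square per degree of freedom 2.67 to 35.2). Library totals limit precision, and floors cover counting error only. The alternatives were other scaling, no filter, DESeq2 1.42.0, a GC correction, a replicate block, A733T averaged in, and each library left out. The scripts were tested on simulated data.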

Additional observations from a re-analysis of the deposited data

Results flagged for a closer look

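The response to ATRA differed between a line and WT, by a test of the interaction, in 18 cases over 7 such comparisons that share the WT libraries. The values are log2 differences of the response, line minus WT, and a positive value means a greater rise or a lesser fall in the line. None of their causes was tested.

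Sall1 and Sall3 supply 9 of the cases. Sall1 differed by 0.84 (adjusted p = 1.75e-09) in A677T and by 0.40 (adjusted p = 7.52e-05) for the mean of the 4 Weaver lines, both under every alternative. It differed by 0.31 (adjusted p = 0.0263) in R679C, which 10 of 18 alternatives did not call, among them the omission of mESC WT replicates 2 or 3, ATRA WT replicate 3, any R679C mESC library or ATRA R679C replicate 2 (adjusted p up to 0.119), the GC correction (0.122) and no filter on low counts (0.167). It differed by 0.36 (adjusted p = 0.00922) in K563E, lost without mESC WT replicate 3 (0.0626) or ATRA WT replicate 3 (0.0541) and with no filter (0.246). In A733T the difference was -0.36 (adjusted p = 0.0163), lost without mESC A733T replicate 1 (0.0824) or ATRA A733T replicate 1 (0.0514) and with no filter (0.157).

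Sall3 differed by 1.14 (adjusted p = 6.84e-08) in A733T under every alternative. It differed by 0.56 (adjusted p = 0.00290) in R679C, and 0.33 (adjusted p = 0.211) with the GC trend taken out. In K563E it differed by 0.50 (adjusted p = 0.00875), with 0.40 (adjusted p = 0.0753) after the GC correction and an adjusted p of 0.0939 without mESC WT replicate 3 and 0.0646 with no filter. For the mean of the 4 Weaver lines it was 0.35 (adjusted p = 0.0158), and 0.18 (adjusted p = 0.392) corrected. That call was also lost with no filter (0.0810) and without mESC WT replicate 3 (0.202), ATRA WT replicate 1 (0.0869) or mESC K634E replicate 1 (0.0504).

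Among the SoxB1 genes, Sox3 differed by 1.37 (adjusted p = 6.49e-07) in A733T and 1.37 (adjusted p = 1.51e-06) in het, and Sox1 by 1.17 (adjusted p = 0.000317) in het, under every alternative. Sox3 differed by 0.87 (adjusted p = 0.000276) in A677T, and 0.43 (adjusted p = 0.0514) with the GC trend taken out.

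On the log2 scale Pax6 rose less than in WT, at -1.26 (adjusted p = 0.0150) in R679C, -1.24 (adjusted p = 0.0178) in K563E and -1.06 (adjusted p = 0.0150) for the mean. In ATRA, R679C and K563E averaged 25.2 and 27.1 CPM, above the 18.4 CPM of WT. In mESC the WT libraries had 6, 9 and 7 counts, against 28, 24 and 25 in R679C and 20, 25 and 26 in K563E. All 3 Pax6 calls were lost without mESC WT replicate 1, with an adjusted p of 0.0678, 0.0913 and 0.0912. The call for the mean was also lost with A733T averaged in (adjusted p = 0.0675). The R679C call was also lost without mESC R679C replicate 1 (0.0769), and the K563E call without mESC K563E replicate 3 (0.0544). Rfx4 rose more, by 2.00 (adjusted p = 0.0152) in K563E and 1.24 (adjusted p = 0.0304) for the mean. The K563E call was lost without mESC WT replicate 2 (0.116) or mESC K563E replicate 2 (0.0540) and with no filter (0.0828). The call for the mean was lost with no filter (0.116), with A733T averaged in (0.70, adjusted p = 0.297) and without mESC WT replicate 2 (0.240) or ATRA WT replicates 2 (0.0836) or 3 (0.0590).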

How the results depend on the processing

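Of 150 called log2 fold changes of the members, 114 kept their direction and call under every alternative, and of the 2240 values that the alternatives gave for them 2099 did, 137 lost the call and 4 turned. Sox3 in A677T mESC against WT became 0.18 with the GC correction, alone and with the replicate block, and with A733T averaged in, the Weaver mean against WT became -0.12 for Sox3 in mESC and -0.092 for Sall1 in ATRA. Of 85 uncalled values, 73 stayed uncalled. The number of members called moved by over 1.5 times as follows, and the cause was not tested. With the GC correction, the interactions gave 1 for A677T, 1 for R679C and 1 for K634E, and with the block added 1 for R679C and 1 for K634E. With no filter on low counts, ATRA gave 1 for K634E and 2 for the Weaver mean against WT, and the interactions 1 for K563E and 2 for the Weaver mean. With A733T averaged in, the Weaver mean gave 3 in mESC and 2 for the interaction. Leaving out 1 library gave 1 to 3 for K634E and 2 to 5 for the Weaver mean in mESC, 2 to 4 for the Weaver mean in ATRA and 2 to 4 for the K563E interaction. No filter on low counts also lost the mESC calls of Sox3 in R679C (adjusted p = 0.0559), of Sox3 for the Weaver mean (0.0724) and of Rfx4 in K563E (0.0568). Leaving out mESC A677T replicate 3 and ATRA K634E replicate 3 together, an alternative chosen after seeing the data, changed 1 call, that of Sox3 in A677T mESC against WT (-0.29, adjusted p = 0.150).

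The labels give same-numbered libraries no shared origin. Their deviations from the group means correlated over 0.1 in 39 of 84 pairs in mESC and 56 of 84 in ATRA, against 51 of 168 and 37 of 168 pairs of other numbers. The median correlation was 0.09 in mESC and 0.19 in ATRA for same numbers, against -0.05 and -0.09 for other numbers. The main test did not take the numbers as pairs, because the labels do not pair them. A shared batch need not show in every pair, so these values do not exclude one. That same-numbered libraries deviated together more often is a hint from the data, not the design. With the replicate number as a block, 230 of 235 values kept their side of the threshold, 5 gained a call and none lost one. The gains were Irx3 in ATRA in K563E (adjusted p = 0.00952) and R679C (0.0436), Sox1 in ATRA in WT against het (0.0150) and the Rfx4 interactions of A677T (0.0466) and A733T (0.0495). Depth limits Neurog2 in both states and Irx3, Rfx4 and Pax6 in mESC, which had at most 28 counts in any library.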
